A study of Mus musculus with 6 samples.

Results

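The genes described here are 10 imprinted genes that act on growth, measured in basal epithelial cells of the newborn mouse prostate. They are H19, Meg3, Cdkn1c, Grb10, Dlk1, Peg3, Mest, Plagl1, Ndn and Peg10. Every array probe whose gene name was one of these symbols was taken, which gave 26 of the 55681 probes of the array and 10 of its 36163 gene names. Of the 26 probes, 25 were bright enough to be tested in at least 1 population, and 23 were well above background on all 6 arrays. The remaining probe, 1 of the 3 for Meg3, was above background on 1 array of each population and was not tested.

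The cells came from male FVB/N mice of the line Tg 11.5kb-GFP at 6 days of age, in which the s-SHIP promoter, an 11.5 kb stretch of the SHIP1 locus, drives GFP. Prostate cells without the lineage markers Ter119, CD31 and CD45 and with Sca-1 and CD49f (LSC cells) were sorted into LSC GFP+ and LSC GFP- cells, with 3 independent samples of each. All mice carried the transgene and none was treated, so both populations were sorted from the same kind of gland and differ in GFP. GFP reports the promoter fragment and not the SHIP1 protein, and whether each sample pooled several animals was not given in the sources used here.

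An imprinted gene is expressed from the copy inherited from one parent, while the other copy is held silent by marks laid down in the germ line. The genes sit in clusters that share an imprinting control region, a stretch of DNA methylated on one parental copy. Many of them act on growth before and shortly after birth: as a rule, paternally expressed genes promote growth and maternally expressed genes restrain it. Expression of several of them declines in most organs after birth, and a network of imprinted genes has been described in adult stem cells. The arrays measured total RNA, so they carry no information on which parental copy was read.

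Both noncoding members, H19 and Meg3, are shown by the sequences of their probes. As for every gene on these arrays, coding or not, the probes are the only parts of the transcript these data see. For H19, 3 of its 7 probes are printed: the brightest, which lies nearest the 3′ end of the transcript, the one with the largest difference between populations, and the one farthest from the 3′ end. All lie on the reverse strand of chromosome 7 in mm9, at chr7:149761492-149761551, chr7:149762113-149762172 and chr7:149762417-149762476.
H19, 57 bases from the 3′ end: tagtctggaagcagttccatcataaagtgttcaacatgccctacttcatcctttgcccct
H19, 678 bases from the 3′ end: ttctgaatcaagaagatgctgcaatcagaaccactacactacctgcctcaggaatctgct
H19, 982 bases from the 3′ end: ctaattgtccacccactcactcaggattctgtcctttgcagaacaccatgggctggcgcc

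Both tested Meg3 probes are printed, the second and the last of its 3 probes in genome order. They lie on the forward strand of chromosome 12 at chr12:110799558-110799617 and chr12:110809678-110809737, farther apart than the H19 probes.
Meg3, second probe: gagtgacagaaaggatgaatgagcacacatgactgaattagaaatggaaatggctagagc
Meg3, last probe: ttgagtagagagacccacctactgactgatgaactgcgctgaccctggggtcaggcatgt

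Values are log2 signals minus the 75th percentile of their array, so that 0 is the level of a fairly bright probe and each unit is a doubling. Levels of different probes cannot be set against each other, because probes differ in how well they hybridise. Differences are LSC GFP+ minus LSC GFP-. A probe was called at an unadjusted p under 0.05, the threshold of the study's methods. Unless another fit is named, calls are from limma without pairing of the samples by replicate number. No probe of the 10 genes passed after Benjamini-Hochberg adjustment over the 37005 probes tested, of which 1, or 0.0027%, did. Exact permutation of 3 arrays against 3 cannot go below p = 0.1. In these bulk samples, fewer cells of a type and less RNA per cell cannot be told apart.

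**Figure D1:**
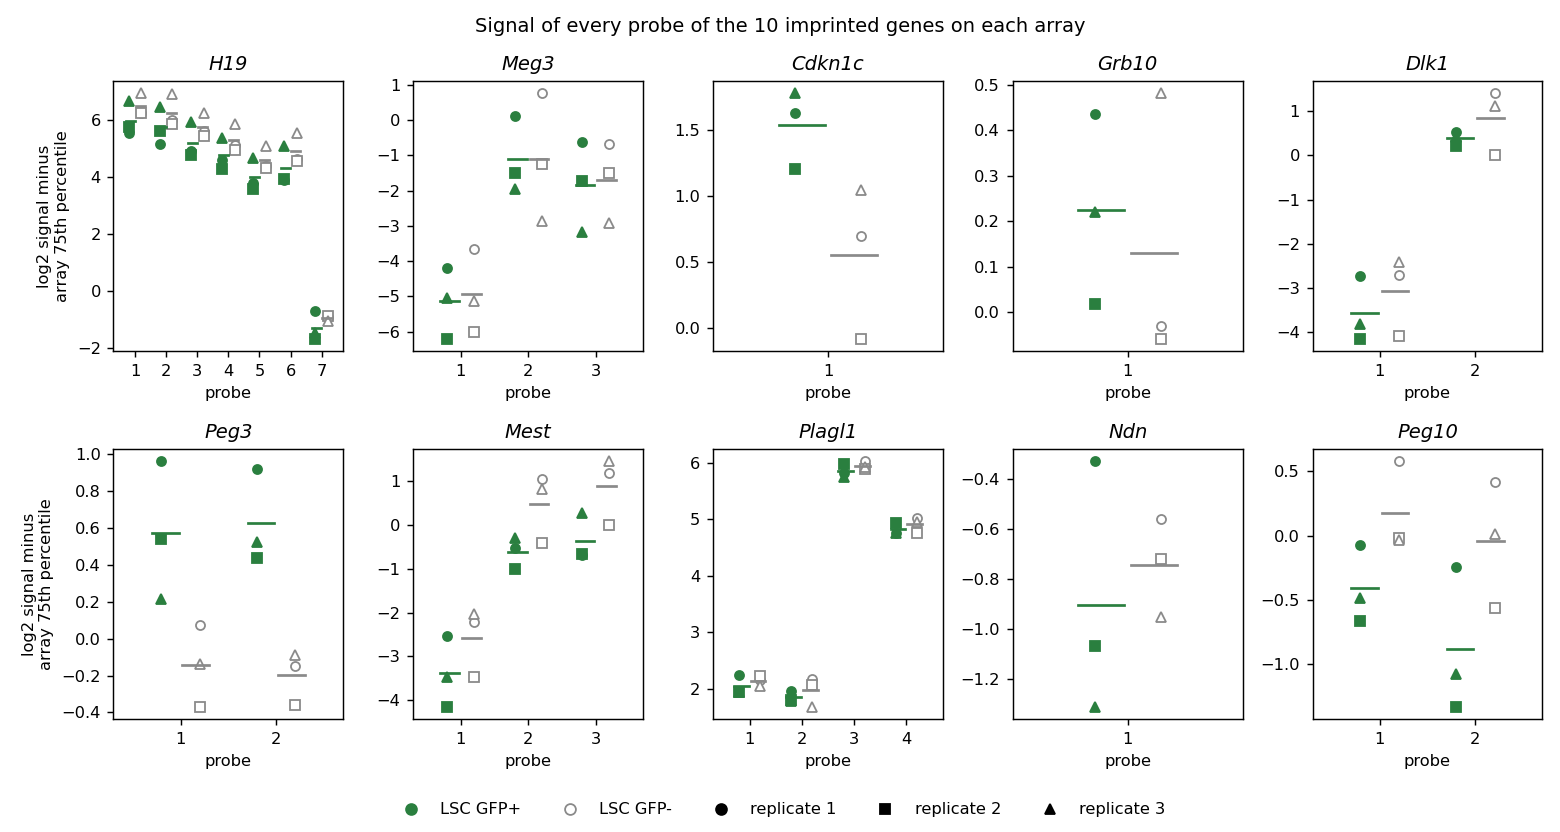
Signal of every probe of the 10 genes, 1 panel per gene with its probes along the x axis in genome order; the y axis is the log2 signal minus the 75th percentile of the array, with its own range in each panel. Filled green symbols are LSC GFP+ and open grey symbols LSC GFP- arrays, the shape gives the replicate, and short lines are means of 3 arrays; the populations part without overlap at Cdkn1c, at both Peg3 probes and at the first Peg10 probe.

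Each array had between 36656 and 42128 probes well above background and no saturated spot, and across probes any pair of arrays had an r of 0.963 to 0.979. The basal keratin genes Krt5 and Krt14 were higher in LSC GFP+ cells by 0.70 and 1.18. The sorting genes Itga6 (CD49f) and Ly6a (Sca-1) differed by 0.25 and -0.36 and were not called. The probe for Inpp5d, the SHIP1 gene, was below the background limit on all 6 arrays. Of 14 tested basal markers 9 were called higher and 0 lower, and all 14 had a difference above 0. Of 12 stromal markers 2 were called higher and 6 lower, with Col1a1 at -2.18 and 10 of the 12 differences below 0. Of 8 smooth muscle markers 0 were called higher and 7 lower, with Acta2 at -2.13 and 7 of the 8 below 0. The summed level of the smooth muscle list was 2.91 to 3.48 in LSC GFP+ and 4.41 to 5.37 in LSC GFP- samples, and that of the stromal list 5.01 to 5.26 and 5.06 to 6.24. Called higher and lower were 2 and 2 of 10 luminal markers, 0 and 1 of 5 endothelial, 0 and 0 of 7 immune, and 0 and 0 of 7 glial and neuronal markers. By sign, 7 luminal, 4 endothelial, 3 immune and all 7 glial and neuronal differences were below 0, the last with a median of -0.66. The defining markers Krt8, Col1a1, Acta2, Ptprc and Sox10 were above background on all 6 arrays, and Pecam1 was on 2 of 3 LSC GFP+ and on all 3 LSC GFP- arrays. The part of these cells in the differences below was not tested.

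The called probes of the imprinted growth genes lay in both directions, and a shift of the genes as a group was not tested. In LSC GFP+ cells Cdkn1c and Peg3 were higher, Mest was lower at 2 of its 3 probes and Peg10 at 1 of its 2. H19, Meg3, Grb10, Dlk1, Plagl1 and Ndn held no called probe in this fit without pairing. Of the 25 tested probes, 3 were called higher and 3 lower, where 3.38% and 4.53% of all tested probes were. Counting 1 probe per gene, the brightest, 2 of 10 genes were higher and 1 lower, beside 3.39% and 4.29% of all 25545 tested genes. The populations did not overlap at 3 probes that were higher and at 1 that was lower, against 6.61% and 5.65% of all probes. The median difference of the 10 genes at their brightest probe was -0.13, and that of all tested genes was -0.01. Taken pair by pair, that median was -0.42, -0.09 and -0.27 for replicates 1, 2 and 3. By sign alone, 5 of the 25 tested probes were on the higher side and 20 on the lower side, but 7 of these 20 belong to H19 and 4 to Plagl1, and probes of a gene read the same RNA. All 3 replicates pointed up at 3 probes and down at 12, beside 21.4% and 17.1% of all tested probes. With the replicate number as a block, 3 probes were higher and 11 lower, beside 6.74% and 8.07% of all probes. These 11 were 6 of H19, 3 of Mest, its dim probe included, and 2 of Peg10. By the methods' t-test 2 were higher and 0 lower, beside 4.27% and 3.29%.

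**Figure D2:**
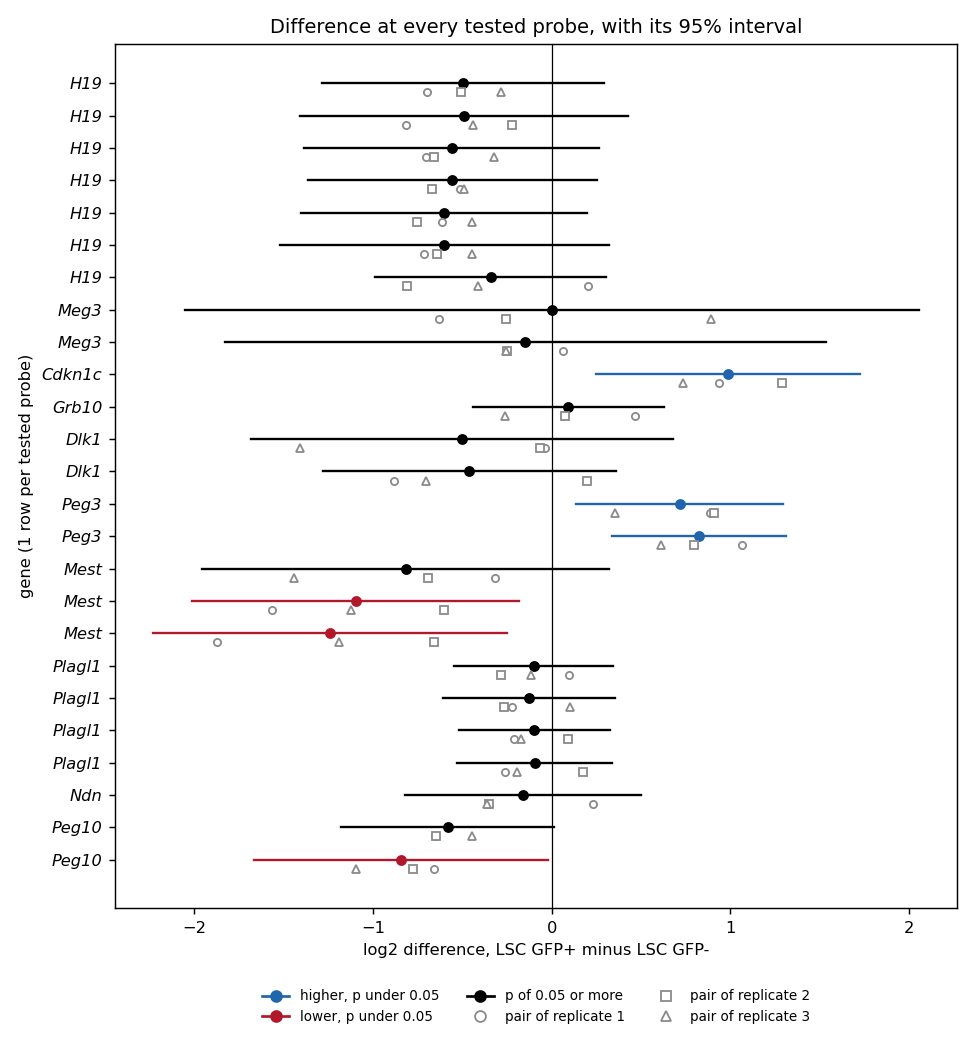
Log2 difference, LSC GFP+ minus LSC GFP-, on the x axis for each of the 25 tested probes, 1 row per probe labelled by gene; large dots are the difference of the 3-array means with its 95% interval from limma, and small open symbols are the differences within replicates 1, 2 and 3. The intervals of Cdkn1c and both Peg3 probes lie above 0 (blue), those of 2 Mest probes and 1 Peg10 probe lie below 0 (red), and the other 19 cross it.

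Among the maternally expressed genes, Cdkn1c stood higher in LSC GFP+ cells. It encodes p57, an inhibitor of cyclin-dependent kinases that takes cells out of the division cycle and is a brake on growth. Its single probe, on the reverse strand at chr7:150644753-150644812, read 1.63, 1.21 and 1.78 in LSC GFP+ replicates 1, 2 and 3. In LSC GFP- replicates 1, 2 and 3 it read 0.70, -0.08 and 1.05. Every LSC GFP+ value was above every LSC GFP- value, and the lowest level of each population was in replicate 2. The means were 1.54 ± 0.30 and 0.55 ± 0.58 (SD, n = 3 each), a difference of 0.99 with an SE of 0.32, or a fold of 1.98. With limma the unadjusted p was 0.015, the adjusted p 0.408, and the 95% interval of the fold ran from 1.19 to 3.31. Within replicates, Cdkn1c was higher by 0.94, 1.29 and 0.73. With a block for the replicate number, its p was 0.00183 and its adjusted p 0.0991, the lowest adjusted p of any of the 25 probes in that fit. The methods' t-test gave an unadjusted p of 0.058, which is not a call.

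Grb10, the other coding gene on the maternal side, showed no difference that these arrays could resolve. It encodes an adaptor protein that binds the insulin and IGF1 receptors and damps their signalling. It read 0.44, 0.02 and 0.22 in LSC GFP+ replicates 1, 2 and 3, and -0.03, -0.06 and 0.48 in LSC GFP- replicates 1, 2 and 3. The ranges lay across each other, and the highest value was an LSC GFP- array. The difference was 0.09 with an SE of 0.23 (unadjusted p of 0.694), and the interval allows a fold between 0.737 and 1.55.

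H19 was on the lower side in LSC GFP+ cells at every probe, with overlapping populations and no call in the fit without pairing. H19 is a noncoding RNA, abundant in fetal tissues, that restrains growth and is the precursor of a microRNA; it shares its control region and enhancers with Igf2. At the brightest probe, the one 57 bases from the 3′ end, it read 5.55, 5.76 and 6.66 in LSC GFP+ replicates 1, 2 and 3. In LSC GFP- replicates 1, 2 and 3 the same probe read 6.25, 6.27 and 6.95. The populations overlapped, because LSC GFP+ replicate 3 was above LSC GFP- replicates 1 and 2, yet within each replicate the LSC GFP+ value was the lower one, by 0.70, 0.50 and 0.28. The difference of the means was -0.50 with an SE of 0.34 (unadjusted p of 0.184).

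The array design places H19 at chr7:149761435-149764019 on the reverse strand, an interval of 2585 bases. Counted on the genome, the 7 H19 probes spanned 57 to 982 bases from the 3′ end of this interval. Their differences ran from -0.60 to -0.34 with p between 0.120 and 0.260, and an adjusted p of at least 0.813. At 6 of the 7 probes the LSC GFP+ sample was the lower one in all 3 replicates. These 6 probes share their arrays and their RNA and count as 1 gene. The same 6 probes were called lower when the replicate number was a block, with p between 0.00729 and 0.0332 and adjusted p between 0.160 and 0.289. With quantile normalization, 3 of them were called lower. Leaving out LSC GFP+ replicate 3 also gave a lower call at the 6 probes, -0.83 with an unadjusted p of 0.022 at the brightest, whereas that probe was at -0.27 without LSC GFP+ replicate 1 (unadjusted p of 0.463) or LSC GFP- replicate 3 (unadjusted p of 0.474). The seventh probe, 982 bases from the 3′ end, read -0.70, -1.69 and -1.48 in LSC GFP+ and -0.90, -0.88 and -1.06 in LSC GFP- replicates 1, 2 and 3. There LSC GFP+ replicate 1 was the highest of all 6 arrays, and the difference was -0.34 with an SE of 0.28; without that array it was -0.63 with an unadjusted p of 0.017.

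**Figure D3:**
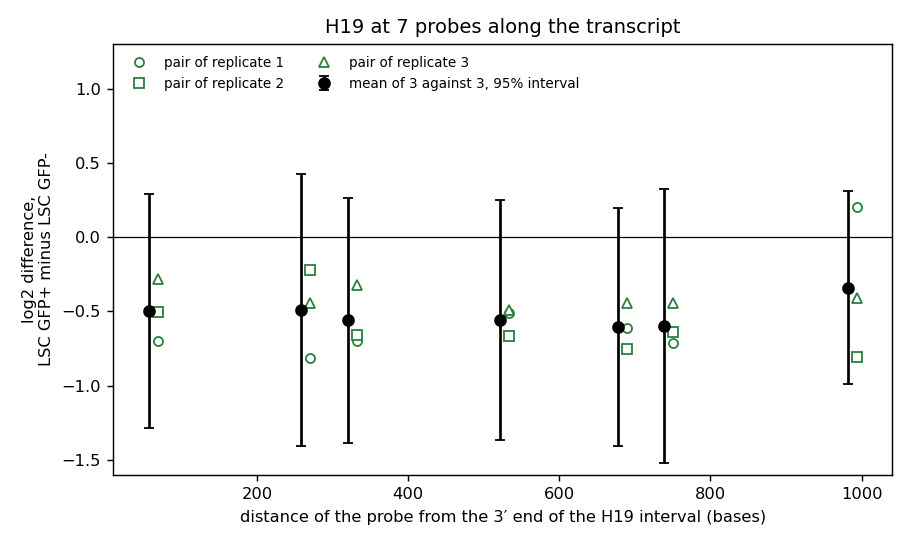
Log2 difference of H19, LSC GFP+ minus LSC GFP-, on the y axis at its 7 probes, placed on the x axis by genomic distance in bases from the 3′ end of the H19 interval. Black dots are differences of the 3-array means with 95% intervals, all of which cross 0, and open symbols, set slightly to the right, are the differences within each replicate; 1 of the 21 lies above 0, that of replicate 1 at the probe 982 bases from the 3′ end.

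Meg3 differed between samples far more than between populations. It is a noncoding RNA expressed from the maternal copy of the Dlk1 cluster, and it has been tied to the silencing of genes in trans and to growth arrest. The brightest probe, the second of the 3, read 0.13, -1.50 and -1.96 in LSC GFP+ replicates 1, 2 and 3 and 0.76, -1.25 and -2.85 in LSC GFP- replicates 1, 2 and 3. Replicate 1 was the highest and replicate 3 the lowest in both populations. The last probe had the same order, with -0.61, -1.74 and -3.18 in LSC GFP+ and -0.67, -1.49 and -2.92 in LSC GFP- replicates 1, 2 and 3. The order was not particular to Meg3. Mirg of the same cluster read 0.05, -0.48 and -1.35 in LSC GFP+ and -0.17, -0.40 and -0.82 in LSC GFP- replicates 1, 2 and 3 at its brightest probe. Dlk1 and Dio3 of that cluster did not have this order.

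Averaged over both populations, the replicates spanned 2.85 on the log2 scale at the second Meg3 probe and 2.41 at the last. The median span over all tested probes was 0.48, and 0.278% and 0.476% of tested probes had a wider one. The differences between populations were 0.00 with an SE of 0.89 (unadjusted p of 0.998) and -0.15 with an SE of 0.73 (unadjusted p of 0.845). These errors are so wide that the intervals allow a fold between 0.241 and 4.16 at the second probe. The untested first probe read between -6.21 and -3.67 and was above background on 1 LSC GFP+ and 1 LSC GFP- array.

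**Figure D4:**
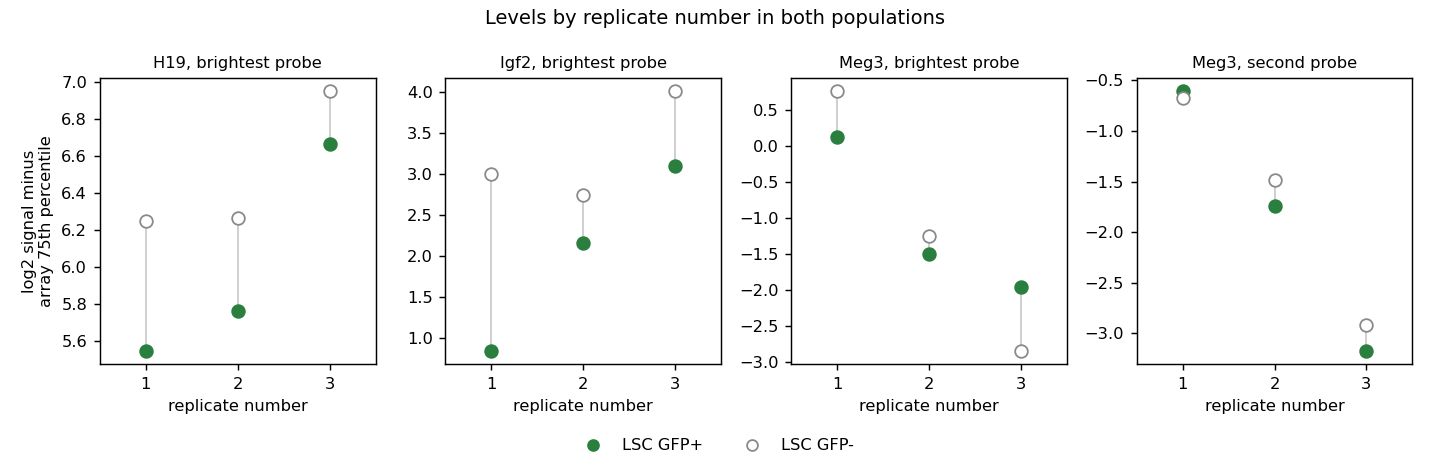
Log2 signal minus the 75th percentile of the array, on the y axis with its own range in each panel, by replicate number on the x axis. Panels show the brightest H19 probe, Igf2 and both tested Meg3 probes. Filled green dots are LSC GFP+ and open grey dots LSC GFP- samples, joined within a replicate. The Meg3 levels are highest in replicate 1 and lowest in replicate 3 in both populations, while H19 and Igf2 are highest in replicate 3 and lower in LSC GFP+ in each replicate.

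Of the paternally expressed genes, Peg3 was the one that was higher in LSC GFP+ cells. It encodes a large zinc finger protein that binds DNA and has roles in growth, maternal behaviour and stem cells of several tissues. Its first probe, at chr7:6658774-6658833 on the reverse strand, read 0.96, 0.54 and 0.22 in LSC GFP+ replicates 1, 2 and 3. In LSC GFP- replicates 1, 2 and 3 it read 0.08, -0.37 and -0.14. The populations did not overlap, with the narrowest gap between LSC GFP+ replicate 3 and LSC GFP- replicate 1. The difference was 0.72 with an SE of 0.25, a fold of 1.64, with an unadjusted p of 0.021 and an adjusted p of 0.463 in limma. Leaving out LSC GFP+ replicate 1 or LSC GFP- replicate 2 raised the unadjusted p to 0.062 or 0.077.

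The second Peg3 probe, at chr7:6661407-6661466, gave the smallest p of the 25. It read 0.92, 0.44 and 0.52 in LSC GFP+ replicates 1, 2 and 3 and -0.15, -0.36 and -0.09 in LSC GFP- replicates 1, 2 and 3. Again no values overlapped, and all LSC GFP- values lay below 0. The means were 0.63 ± 0.26 and -0.20 ± 0.14 (SD, n = 3 each). The difference was 0.83 with an SE of 0.21, a fold of 1.77 with a 95% interval from 1.26 to 2.49, an unadjusted p of 0.005 and an adjusted p of 0.256 in limma. The probes lie in the same gene at separate positions, so they are readings of 1 transcript and not separate support for a change.

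Mest was lower in LSC GFP+ cells. It encodes an enzyme-like protein of the alpha/beta hydrolase fold and is named for its expression in mesoderm; it promotes growth of the embryo. Its brightest probe, at chr6:30698279-30698338 on the forward strand and spotted 10 times on each array, read -0.68, -0.67 and 0.27 in LSC GFP+ replicates 1, 2 and 3. In LSC GFP- replicates 1, 2 and 3 it read 1.20, -0.01 and 1.46. The populations overlapped, since LSC GFP+ replicate 3 was above LSC GFP- replicate 2, but in each replicate the LSC GFP+ sample was lower, by 1.87, 0.66 and 1.19. The difference was -1.24 with an SE of 0.43, a fold of 0.423, with an unadjusted p of 0.020 and an adjusted p of 0.454 in limma.

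A second Mest probe, at chr6:30697385-30697444, read -0.52, -1.01 and -0.30 in LSC GFP+ and 1.05, -0.41 and 0.82 in LSC GFP- replicates 1, 2 and 3. Here too LSC GFP- replicate 2 was the low one of its group and fell within the LSC GFP+ range, and the difference was -1.10 with an SE of 0.40 (unadjusted p of 0.024). The remaining Mest probe, at chr6:30692160-30692219, was dim and above background on 2 of 3 LSC GFP+ arrays. It differed by -0.82 (unadjusted p of 0.137 in limma), and in the fit with the block it was called lower (unadjusted p of 0.021, adjusted p = 0.241). This probe passed the brightness filter only through the LSC GFP- arrays, where it was higher, so it adds no support to the other Mest probes. With 1 array left out the brightest probe ran from -1.68 to -0.95 and the second from -1.54 to -0.82, on the same side in each case. The unadjusted p of the brightest was above 0.05 in 4 of these 6 fits of 3 against 2 arrays, at 0.064 and 0.071 without LSC GFP+ replicate 1 or 2 and 0.061 and 0.065 without LSC GFP- replicate 1 or 3, where its differences were -1.08, -1.09, -1.08 and -0.95. That of the second probe was above it in 3, at 0.089 without LSC GFP+ replicate 2 and 0.085 and 0.071 without LSC GFP- replicate 1 or 3.

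Smooth muscle markers were lower in LSC GFP+ samples alongside Mest. In replicates 1, 2 and 3 the summed smooth muscle level was 3.48, 2.91 and 3.41 in LSC GFP+ and 5.37, 4.41 and 4.62 in LSC GFP- cells. The summed stromal level was 5.01, 5.12 and 5.26 in LSC GFP+ and 6.24, 5.06 and 5.62 in LSC GFP- cells. LSC GFP- replicate 2 was the lowest LSC GFP- sample for both lists, for all 3 Mest probes, and for Cdkn1c, both Peg3 probes, Krt5 and Krt14. The rank of 1 array among 3 does not tell whether any of these levels are linked. The part of these cells in the difference of Mest, or of any other member, was not tested.

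Peg10 was also on the lower side in LSC GFP+ cells. It derives from a retrotransposon, keeps its Gag-like and Pol-like reading frames, and is needed for the placenta. The first probe, at chr6:4704589-4704648 on the forward strand, read -0.07, -0.66 and -0.48 in LSC GFP+ and 0.58, -0.02 and -0.04 in LSC GFP- replicates 1, 2 and 3. All LSC GFP- values were above all LSC GFP+ values, by a small margin between LSC GFP+ replicate 1 and LSC GFP- replicate 3. The difference of -0.58 with an SE of 0.26 had an unadjusted p of 0.054 and was not called, while with the block it was (unadjusted p of 0.00756, adjusted p = 0.162).

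The second Peg10 probe, at chr6:4709867-4709926, read -0.24, -1.34 and -1.08 in LSC GFP+ and 0.41, -0.56 and 0.01 in LSC GFP- replicates 1, 2 and 3. LSC GFP+ replicate 1 was above LSC GFP- replicate 2, so the populations overlapped, though each LSC GFP+ sample was below its own replicate. The difference was -0.84 with an SE of 0.36, a fold of 0.558, with an unadjusted p of 0.046 and an adjusted p of 0.614 in limma. It lay close to the threshold, and without LSC GFP- replicate 1 it was -0.61 with an unadjusted p of 0.151. The call was also lost with the LSC GFP+ sample of replicate 2 or 3 or the LSC GFP- sample of replicate 3 left out, at unadjusted p values of 0.156, 0.105 and 0.090.

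Dlk1, Plagl1 and Ndn, the other paternally expressed members, gave no call. Dlk1 encodes a membrane protein with EGF-like repeats related to Notch ligands, which is cleaved to a soluble form and holds back differentiation of several cell types. Its brighter probe read 0.52, 0.21 and 0.42 in LSC GFP+ and 1.41, 0.01 and 1.12 in LSC GFP- replicates 1, 2 and 3. The LSC GFP+ values lay close together while the LSC GFP- values fell on both sides of them, and the difference was -0.46 with an SE of 0.35 (unadjusted p of 0.230). With 1 array left out it ran from -0.88 (unadjusted p of 0.009), without LSC GFP- replicate 2, to -0.18 (unadjusted p of 0.627), without LSC GFP- replicate 1. The dimmer Dlk1 probe was above background on 2 of 3 LSC GFP+ arrays and differed by -0.50 (unadjusted p of 0.355). It ran from -1.02 (unadjusted p of 0.048) without LSC GFP- replicate 2 to -0.17 (unadjusted p of 0.752) without LSC GFP- replicate 3.

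Plagl1 encodes a zinc finger transcription factor that is linked to cell cycle arrest and regulates other imprinted genes. It varied little between populations and, at its brightest probe and the next brightest, between samples. Its brightest probe read 5.82, 5.98 and 5.75 in LSC GFP+ and 6.03, 5.89 and 5.92 in LSC GFP- replicates 1, 2 and 3. The 4 probes differed by -0.13 to -0.09 with p between 0.558 and 0.626, and the interval at the brightest allows a fold between 0.697 and 1.25. The brightest probe and the next brightest share the 26 bases ATCTCCTAACCTTTGATGACTCTGTA and so are not independent readings. Averaged over the populations, 96.7% and 99.5% of all tested probes spanned more between replicates than these probes did. For the other Plagl1 probes the shares were 86.1% and 69.1%.

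Ndn encodes necdin, a protein of the MAGE family that binds E2F1 and p53 and keeps neurons out of the cell cycle. It read -0.33, -1.07 and -1.31 in LSC GFP+ and -0.56, -0.72 and -0.95 in LSC GFP- replicates 1, 2 and 3. LSC GFP+ cells held both the highest and the lowest value, and the difference was -0.16 with an SE of 0.29 (unadjusted p of 0.590).

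The clusters around the members were read through a list of 48 other genes with parent-of-origin expression in at least some tissues. The parental side given for each is that of the list and was not measured in these cells. Of the 48, 47 were on the array and 40 were tested at their brightest probe. Of these 40, 2 were called higher and 5 called lower, where 3.39% and 4.29% of all tested genes were. The smallest adjusted p was 0.166. Their median difference was -0.09. Of the 19 maternally expressed genes 1 was higher and 3 lower, and of the 21 paternally expressed 1 was higher and 2 lower. By place, 1 was higher and 4 lower of the 23 that share a cluster with a member, and 1 was higher and 1 lower of the 17 that do not.

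In the Cdkn1c cluster of distal chromosome 7, 3 of the 7 tested neighbours were called and they lay on the other side from Cdkn1c. Kcnq1, a potassium channel gene, read -1.73, -1.10 and -0.86 in LSC GFP+ and -0.19, 0.10 and 0.35 in LSC GFP- replicates 1, 2 and 3. No values overlapped, and the difference was -1.32 with an SE of 0.28 (unadjusted p of 0.002, adjusted p = 0.166). Phlda2, a restrainer of placental growth, was lower by 1.11 (unadjusted p of 0.005) and Slc22a18, a transporter gene, by 0.69 (unadjusted p of 0.028), both without overlap. All 3, like Cdkn1c, are expressed from the maternal copy under the same control region. Ascl2, Tssc4, Osbpl5 and Kcnq1ot1 differed by 0.04, 0.17, 0.08 and -0.20 and were not called. The difference between Cdkn1c and these neighbours was not itself tested.

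In the Peg3 cluster on proximal chromosome 7, Usp29 was the 1 neighbour tested. Usp29, a ubiquitin protease gene transcribed from the same paternal copy as Peg3, read -3.91, -4.41 and -3.43 in LSC GFP+ and -2.75, -3.00 and -2.91 in LSC GFP- replicates 1, 2 and 3. It was lower by 1.03 (unadjusted p of 0.005) without overlap, while Peg3 was higher, and the difference between these genes was not tested. The Usp29 probe was dim and above background on 2 of 3 LSC GFP+ arrays. It passed the brightness filter only through the LSC GFP- arrays, where it was higher, so its call is no support for a contrast with Peg3.

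Around Ndn, Peg12 was higher by 1.15 (unadjusted p of 0.002, adjusted p = 0.173) at its brightest probe, and a second Peg12 probe differed by 0.41 (unadjusted p of 0.139). Magel2, Mkrn3, Snrpn, Ube3a and Atp10a of the same cluster differed by 0.08, -0.33, -0.16, 0.20 and 0.08 at their brightest probe and were not called. The other tested probes of Snrpn and Ube3a differed by -0.02 and -0.92 (unadjusted p of 0.964 and 0.061 in limma). That of Ube3a was dim and above background on 1 of 3 LSC GFP+ arrays. No tested neighbour was called around H19, Meg3 and Dlk1, Mest, Grb10 or Peg10. Among them were Ins2 at -0.10, Mirg at -0.13, Dio3 at 0.03, Copg2 at -0.03, Ddc at -0.87 (unadjusted p of 0.114), and Sgce, Ppp1r9a and Asb4 at -0.09, -0.18 and 0.02. Sgce shares its promoter region with Peg10, and its 3 LSC GFP+ values of 0.02, -0.29 and 0.01 lay within or close to the LSC GFP- values of 0.07, -0.09 and 0.02.

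Igf2, the paternally expressed growth factor next to H19, read 0.84, 2.16 and 3.10 in LSC GFP+ and 3.00, 2.75 and 4.01 in LSC GFP- replicates 1, 2 and 3. Like H19 at 6 of its 7 probes, Igf2 was lower in LSC GFP+ in each replicate and highest in replicate 3 of both populations. The Igf2 difference of -1.22 with an SE of 0.57 was not called (unadjusted p of 0.065 in limma). Outside the clusters of the members, Slc38a4, an amino acid transporter gene, was lower by 1.03 (unadjusted p of 0.016) and Dcn, which encodes the proteoglycan decorin and is also in the stromal list, was higher by 1.19 (unadjusted p of 0.003).

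Promoter windows of 250 bases before the start site, from RefSeq on GRCm38.p6, were at hand for 7 of the 10 members, in 11 windows. They were searched for the letters TGCCGC on either strand (GCGGCA on the other), the core of the motif bound by ZFP57, a zinc finger protein that keeps methylation on imprinted control regions. Of all 32851 windows in the table, 8.68% held it. Of the 11 windows, 4 did, but 2 of these are Mest windows that overlap almost wholly and hold the same matches. The others belong to Plagl1 and Meg3. The motif includes the letters CG, which the Mest, Plagl1 and Meg3 windows with a match held 14, 14, 19 and 10 times. The median over all windows was 6, and member windows without a match held CG 0 to 40 times. The 8.68% is thus not the share among windows equally rich in CG. The windows of Mest and Peg3 are printed because these genes had called probes in opposite directions. The Mest window, at chr6:30737800-30738049 on the forward strand, held the letters at 2 places, in capitals below, and that of Peg3, at chr7:6730420-6730669 on the reverse strand, at 0 places. A further Mest window, at chr6:30733256-30733505, held them at 0 places as well.
Mest: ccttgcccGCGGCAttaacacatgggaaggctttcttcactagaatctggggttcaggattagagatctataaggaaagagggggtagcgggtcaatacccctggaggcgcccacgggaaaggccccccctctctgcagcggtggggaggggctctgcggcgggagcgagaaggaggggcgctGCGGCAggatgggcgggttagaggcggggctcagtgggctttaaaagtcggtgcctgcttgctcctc
Peg3: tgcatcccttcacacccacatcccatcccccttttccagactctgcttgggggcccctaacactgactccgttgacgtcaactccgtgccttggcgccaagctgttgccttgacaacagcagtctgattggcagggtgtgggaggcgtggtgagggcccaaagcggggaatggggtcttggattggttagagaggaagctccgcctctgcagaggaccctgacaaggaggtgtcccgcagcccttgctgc
A match is a description of these letters and not a bound site, and methylation was not measured here.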

How the data were processed

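Gene expression was measured on 6 single-colour SurePrint G3 Mouse arrays, 3 per population, from amplified RNA. Feature Extraction 11.0.1.1, per the file headers, gave the deposited processed intensity of each spot, on the linear scale with background and a spatial trend removed and no normalization between arrays. The values in the authors' series table are the same intensity values, rounded. All arrays share 1 slide and 1 scan day, so no batch could be compared. Probe positions are those of mm9.

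Here log2 was taken of the processed signals and the array's 75th percentile subtracted. Outlier spots (123 to 154 per array) were dropped and the spots of a probe averaged. Probes had to be marked well above background on every array of 1 population or both to be tested. The test was limma (version 3.58.1, R 4.3.3; lmFit, eBayes), two-sided, over 37005 probes, with Benjamini-Hochberg adjustment. The unadjusted threshold of 0.05 and Student's t-test are those of the study's methods, which state no scaling, filter or correction for the arrays. The study's results mention a filtration of probes, without its rule, and a fold threshold beside the p-value, which was not used here. The number of arrays limits the precision. Data were simulated from these arrays, with 36990 probes and 100 randomly picked probes changed at each size. There limma found 90% of log2 changes of 1 and 97% of changes of 2 at the unadjusted threshold. After adjustment it found 2% and 50%, and it called 5.42% of unchanged probes at the unadjusted threshold. The noise was drawn separately for each array, without the correlation between same-numbered samples. The percentages are averages over probes and do not give the rate for the members.

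Replicate numbers shared in the sample labels were checked for pairing through the correlation of deviations from the population means, which was 0.43 for replicate 1, 0.28 for replicate 2 and 0.67 for replicate 3. Each same-numbered value exceeded 0.1, which was the limit set for treating same-numbered samples as pairs. Of the unlike-numbered combinations, sample 1 of the GFP+ cells and sample 2 of the GFP- cells also passed, at 0.22. This is close to the 0.28 of replicate 2, so the check hardly sets that pair apart. The remaining unlike-numbered values ran from -0.55 to -0.09. Deviations from a population mean sum to 0 over its 3 arrays, which by itself pushes unlike-numbered values down where same-numbered ones are high. By the limit of 0.1 the same-numbered samples count as pairs. The main fit nevertheless held no replicate block, so its calls leave the pairing by replicate number out. A model with a replicate block was an alternative. Further alternatives were quantile normalization, normexp (offset 50), median scaling, the rounded values, 3 other dimness filters, an intensity trend, the methods' t-test, matching through the RefSeq accession (which added 0 probes) and each array left out in turn. The p-values weigh a difference against the spread between samples of a population, and with the block against the spread left after the replicate number. No source used here says how many animals made up a sample, so how this spread relates to that between animals is not known.

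The members and the gene lists were chosen with earlier results of these data known. Named are every member with every probe, other imprinted genes that were called or share a cluster with a member, the defining markers of the marker lists, and the sorting genes. Gene names are those of the array design. The sequence of the untested Meg3 probe is not reported here.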

Additional observations from a re-analysis of the deposited data

How the results depend on the processing

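No probe of the 10 genes passed after adjustment under any alternative run. The 3 higher calls were 2 to 3 under every alternative and every left-out array; the second Peg3 probe was called in all of them. The 3 lower calls were less stable: 5 under quantile normalization (3 of them H19, with Peg10 no longer called), 0 under the methods' t-test, 11 with the replicate number as a block, 6 of them H19, and 0 to 8 with 1 array left out. They were 5 without LSC GFP+ replicate 1, 0 without LSC GFP- replicate 1, 0 without LSC GFP+ replicate 2, 6 without LSC GFP- replicate 2, 8 without LSC GFP+ replicate 3 and 1 without LSC GFP- replicate 3. The differences of the called Mest and Peg10 probes kept their sign throughout. The methods' t-test on Cdkn1c gave an unadjusted p of 0.058, and the first Peg3 probe had unadjusted p values of 0.062 without LSC GFP+ replicate 1 and 0.077 without LSC GFP- replicate 2. The median of the members ranged from -0.361 (without LSC GFP+ replicate 1) to -0.00138 (without LSC GFP+ replicate 3). The 5 lower calls among other imprinted genes were 3 under the methods' t-test and 4 to 8 with 1 array left out, 8 without LSC GFP- replicate 2. They were 4 among 37 tested genes where probes had to be above background on all 6 arrays, which leaves Usp29 out. Differences near 0 turned sign: the second Meg3 probe was -0.11 with normexp and -0.867 to 0.939 with 1 array left out, the last Meg3 probe -0.764 to 0.520, Grb10 -0.0115 without LSC GFP+ replicate 1, -0.000366 without LSC GFP- replicate 2 and up to 0.270, and Ndn -0.447 to 0.0446. Apart from the calls of H19, Mest and Peg10 given with the results, the block changed no call of a member. The cause of these shifts was not tested. Dim probes, such as those of Meg3, Dlk1 and Mest below background on some arrays, limit what can be said of them.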
